A study of Oryza sativa with 2 samples.

Results

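The plant cell wall is built by glycosyltransferases, and those measured here were taken from 2 two-colour arrays that compared RNA of rice (Oryza sativa) seedlings with and without exposure to jasmonic acid. The members are 29 genes, read by 40 probes, of the 15798 genes and 17839 probes that carry 1 gene name in the series. They were chosen by name: a symbol or synonym, with case ignored and a leading Os dropped, had to start with CESA, CSLA, CSLC, CSLD, CSLE, CSLF, CSLH, GSL, IRX, BC or GT43 directly followed by a number. The names to look for were set with earlier results of these data known. The gene table holds 46 such genes, and 17 of them, CESA9, CSLF3, CSLF4, CSLF9 and IRX14 among them, were not analysed here. No GSL gene matched, and the only GT43 family gene among the members came in as IRX9. One member is no wall gene by its other name: LOC4347540 carries the name BC1 and is also called bHLH081, after a family of transcription factors, while the COBRA-like BC1 is LOC4333114. CSLA1 (LOC4328585) carries the name CSLA9 as well.

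Array 1 set Cy3-labelled RNA of control seedlings against Cy5-labelled RNA of seedlings exposed to 5 µM jasmonic acid, and array 2 had the dyes exchanged. Seedlings were 7 days old and grown on MS medium. No genotype is given, the titles speak of shoots where the design text has whole seedlings, and one label gives 7 days as the length of exposure. Both arrays bear replication number 1 and count as 1 replicate, so the values below have no biological spread and no test. Every gene name below depends on reading the spots in a grid order inferred from the values, which no source states.

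Cellulose is made at the plasma membrane by complexes of cellulose synthase (CESA) subunits, and one set of subunits serves the primary wall of growing cells while another serves the thickened secondary wall. The cellulose synthase-like (CSL) families make other wall polysaccharides. In grasses these include the mixed-linkage glucan made by CSLF and CSLH enzymes, which is abundant in young growing tissue. Jasmonic acid is a hormone of wounding and defence that also restrains seedling growth.

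All ratios are given on the log2 scale, so that 0 is a ratio of 1. The series holds no settled direction. The swap mean, which is the array 1 ratio minus the array 2 ratio, divided by 2, is positive when a ratio is higher on array 1. If the deposited ratio is Cy5 over Cy3 on both arrays, a positive swap mean is higher in exposed seedlings, and if it is Cy3 over Cy5 it is lower there. If both columns are exposed over control, the swap mean holds dye effects and the plain mean of the arrays holds the treatment. Over all 22575 spots Pearson's r between the arrays was 0.54, across spots, which are not replicates, and it was −0.72 in the brightest of 10 groups. The median ratio was −0.30 on array 1 and −0.32 on array 2. Brightness is the log2 geometric mean of the reduced whole-number terms of the ratio, a lower bound on signal, averaged over the arrays, and a ratio of exactly 1 reduces to a brightness of 0. The scaled median absolute deviation of the plain mean after centring was 0.47 in the dimmest of 4 brightness groups of equal size, 0.24 and 0.16 in the next groups and 0.15 in the brightest. It served as the spread between arrays, and it stands for technical error only where the ratio is Cy5 over Cy3, or Cy3 over Cy5, on both arrays.

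None of the 8 measured CESA genes had a negative swap mean, against 7596 of all 15798 genes. Those of CESA2, CESA5 and CESA7 were below the spread of their brightness group. Ratios above 1 on array 1 and below 1 on array 2 were found for 5, CESA1, CESA3, CESA4, CESA6 and CESA8, against 14.7% of all genes. In the brightest group, which holds 6 of the 8, the share over its genes was 27.7%. The median swap mean of the 8 was 0.31, against 0.01 over all genes, and 7 of the 8 lay above that median of all genes. Over the 29 members the median was 0.12, and 17 exceeded the all-gene median, a count that was 22 when the members were named by spot number without the grid. A ratio of 2-fold or more over 1 on array 1 with one of 2-fold or more under 1 on array 2 is called the array 1 side, which held 0 of the members, against 0.5% of all genes. The opposite array 2 side also held 0 members and 0.165% of all genes.

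**Figure D1:**
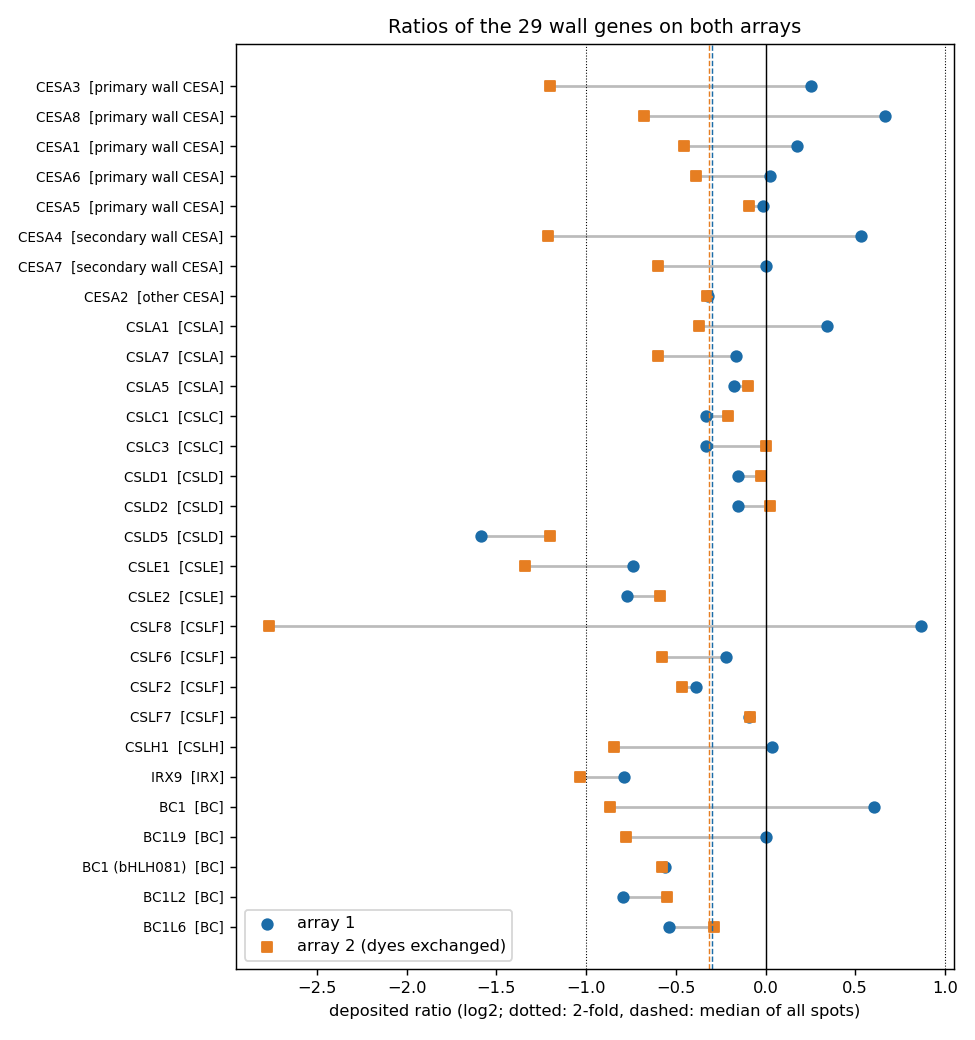
Deposited log2 ratios of the 29 member genes (rows, by family) on array 1 (circles) and array 2 (squares); a gene with several probes is shown at their mean, dotted lines mark 2-fold and dashed lines the median of all spots on each array. The wide gaps belong to CSLF8, CESA4, CESA3, BC1 and CESA8, with array 1 the higher in each.

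Among the primary wall subunits, CESA8 (LOC4342699) was read on a bright spot as 404 over 255 on array 1 and 569 over 911 on array 2. These are log2 ratios of 0.66 and −0.68, a swap mean of 0.67. CESA3 (LOC4343049) had 265 over 222 and 328 over 755, or 0.26 and −1.20, a swap mean of 0.73. Both genes were therefore above 1 on array 1 and below it on array 2, and CESA3 passed 2-fold on array 2 only. CESA1 (LOC4337958), the mean of 3 probes, had 0.17 and −0.45, so that its swap mean was 0.31. CESA6 (LOC4342850), also of 3 probes, had 0.02 and −0.39, so that its swap mean was 0.21. CESA5 (LOC4334710) had 93 over 94 on array 1 and 172 over 183 on array 2, a swap mean of 0.04 on a spot of brightness 7.01. Of the 3 CESA6 probes 2 lay near it, at 0.08 each. The median of the 5 primary wall genes was 0.31.

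Of the secondary wall subunits CESA4 and CESA7 were measured, and CESA9 was not analysed here. CESA4 (LOC4324625) was read as 107 over 74 on array 1 and 157 over 364 on array 2. Its log2 ratios of 0.53 and −1.21 gave a swap mean of 0.87, a size of 1.83-fold and the 189th highest of all 15798 genes. CESA7 (LOC4348853) had a ratio of exactly 1 on array 1 and 29 over 44 on array 2, which is −0.60, so that its swap mean was 0.30. The reduced ratio of 1 puts it in the dimmest brightness group, where the spread of 0.47 exceeds its swap mean. Its brightness on array 2 alone was 5.16, against a median of 5.99 on that array. The median of the pair was 0.59, and it became 0.87 without the dimmest group of spots, since CESA4 alone remained. CESA2 (LOC4334515), which is in neither set, had −0.32 and −0.33, and its probes differed in sign. In order of swap mean the subunits ran CESA4, CESA3, CESA8, CESA1, CESA7, CESA6, CESA5 and CESA2. The gaps from CESA4 to CESA3 and from CESA3 to CESA8 were below 0.15, the spread between arrays in their brightness group. That spread was taken across the spots of the group, not over repeats of a gene or over gaps between genes. CESA7, whose brightness group has a spread of 0.47, cannot be placed in this order. By its brightest probe CESA1 had 0.55, which is also within 0.15 of CESA8, and CESA6 and CESA5 were set apart only by the brightest CESA6 probe. A difference between the primary and the secondary set cannot be tested with 1 replicate.

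**Figure D2:**
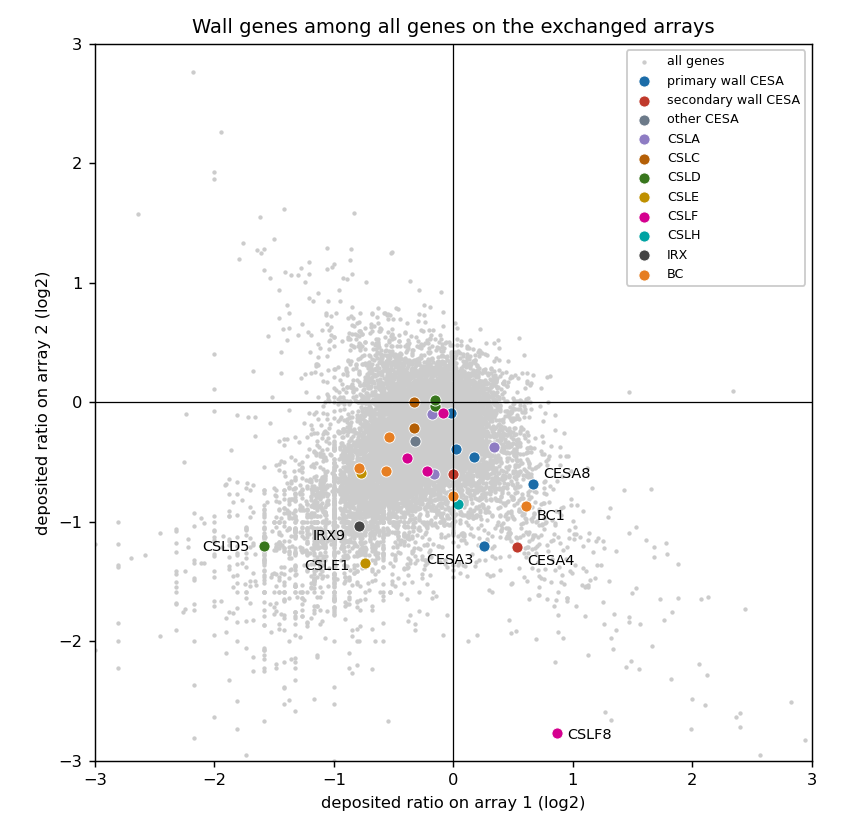
Deposited log2 ratio of each gene on array 1 (horizontal) and array 2 (vertical), with all genes in grey and the members coloured by family; 18 genes lie outside the plotted range of 3. CESA3, CESA4, CESA8, BC1 and CSLF8 lie at the lower right, above 1 on array 1 and below 1 on array 2, and CSLD5 and CSLE1 at the lower left.

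CSLF8 (LOC4343552), of the mixed-linkage glucan family, had the highest swap mean of the members. It was read as 31 over 17 on array 1 and 16 over 109 on array 2, log2 ratios of 0.87 and −2.77. The swap mean of 1.82, a size of 3.52-fold, was the 27th highest of all genes, on a spot of brightness 4.95. The ratio of 1.82 on array 1 fell short of 2-fold, and after centring each array on its median CSLF8 passed on both arrays, with 1.17 and −2.45. The ratio was much farther from 1 on array 2 than on array 1, and the centred plain mean of −0.64 exceeded the spread of 0.24 in its brightness group. The 8 spots that adjoin it on the array had swap means from −0.36 to 0.22.

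The other mixed-linkage glucan genes had smaller values. CSLH1 (LOC4348359) had 0.04 and −0.85 on a bright spot, a swap mean of 0.44. CSLF6 (LOC4344719), the main synthase of this glucan in grasses, had a mean swap mean of 0.18 over 3 probes that differed in sign. CSLF2 (LOC4343553) had −0.39 and −0.47, a swap mean of 0.04, although it stands 2 places from CSLF8 in gene order. CSLF7 (LOC4348365) was read as 125 over 133 and 210 over 223, and its swap mean of −0.001 was close to 0 on a spot of brightness 7.38. The 5 genes of CSLF and CSLH had a median of 0.18, with 4 above the median of all genes.

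Of the remaining CSL families, CSLA and CSLE held positive and negative values, and the CSLC and CSLD genes measured were all negative. In CSLA, whose members make the backbone of mannans, CSLA1 had 0.34 and −0.37, a swap mean of 0.36, CSLA7 (LOC4343994) had 0.22 and CSLA5 (LOC4332966) −0.04, from −0.18 and −0.10. CSLC genes, whose family makes the glucan backbone of xyloglucan, had negative swap means, with CSLC1 (LOC4325496) at −0.06, from −0.33 and −0.21. CSLC3 (LOC4345095) stood at −0.17, from −0.33 on array 1 and a ratio of exactly 1 on array 2, which puts it in the dimmest group. The CSLD family is known for tip-growing cells such as root hairs, and its 3 genes were all negative. CSLD1 (LOC4349505), of 2 probes, had −0.06, from −0.16 and −0.03, and CSLD2 (LOC4339895) −0.09, which came from −0.15 and 0.02. CSLD2 was the 1 member below 1 on array 1 and above 1 on array 2, as 12.6% of all genes were. All these negative values were smaller than the spread between arrays in their brightness group.

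Read as exposed over control on both arrays, CSLD5 (LOC4340943) was the 1 member at least 2-fold below 1 on both. It was read as 1 over 3 and 10 over 23, log2 ratios of −1.58 and −1.20, on a spot of the dimmest group. The share of all genes there was 3.85%, so 1 of 29 members is close to it, and 0 members and 0% of all genes were at least 2-fold above 1 on both. CSLE1 (LOC4347370), also in the dimmest group, had −0.74 and −1.34, a swap mean of 0.30. CSLE2 (LOC4330583) had −0.77 and −0.59 as the mean of 3 probes, a swap mean of −0.09. IRX9 (LOC4344394), a member of the family that extends the xylan backbone, had −0.79 and −1.03 and a swap mean of 0.12. The median plain mean of the members was −0.34 and that of all genes −0.26.

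The COBRA-like BC1 protein is anchored at the outer face of the plasma membrane and is needed for cellulose assembly in rice secondary walls. Its gene was read as 67 over 44 on array 1 and 91 over 166 on array 2. The log2 ratios of 0.61 and −0.87 gave a swap mean of 0.74, between those of CESA4 and CESA3, on a spot of the second brightest group. BC1L2 (LOC4333115), the next gene in gene order, had a swap mean of −0.12, with −0.79 and −0.55 as the mean of 2 probes. BC1L9 (LOC4349011) had a ratio of exactly 1 on array 1 and −0.78 on array 2, with 0.39 as its swap mean, and BC1L6 (LOC4343844) had −0.13, from −0.54 and −0.29. Both lie in the dimmest group, BC1L9 through its reduced ratio of 1, and their swap means were below its spread. The bHLH081 gene had −0.56 and −0.58, a swap mean of 0.01.

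**Figure D3:**
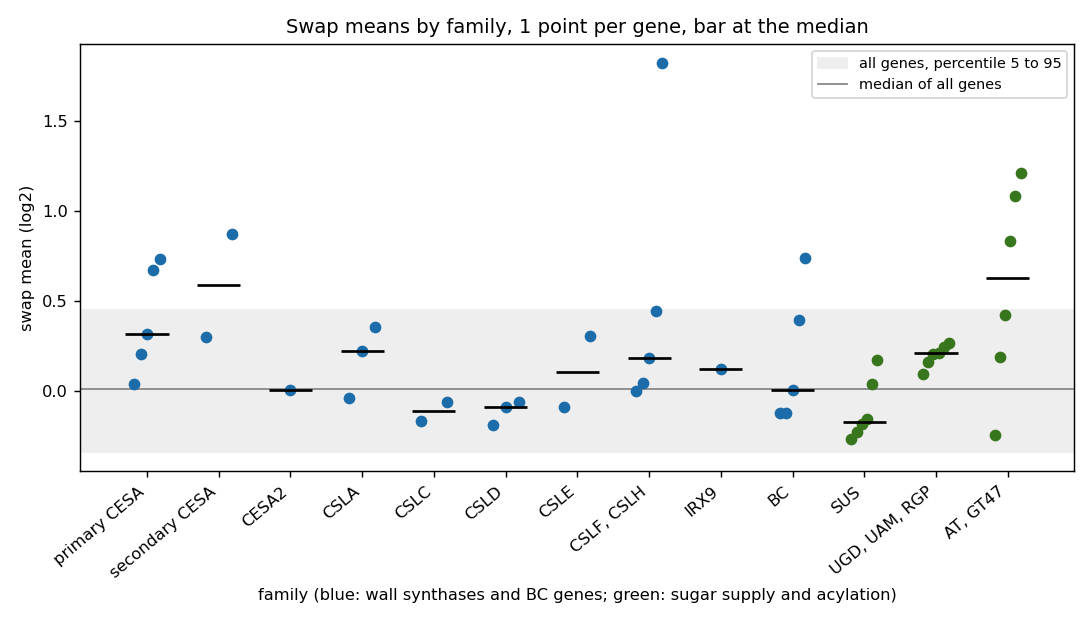
Swap mean (log2) of each gene, by family, with a bar at the family's median; the grey band spans percentiles 5 to 95 of all genes and the grey line their median, blue points are members and green points other wall genes. Points above the band's upper edge of 0.45 are CESA3, CESA8, CESA4, CSLF8, BC1, AT4, AT15 and GT47D, and no point lies below its lower edge of −0.34.

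Opposite ratios on the exchanged arrays were found on 9 of the 29 members in the form above 1 on array 1 and below 1 on array 2, where 14.7% of all genes had this form. These were 5 CESA genes, CSLA1, CSLF8, CSLH1 and BC1. After centring, 13 members and 19.1% of all genes had it. Swap means of 0.5 or more were found for 5 members, CSLF8, CESA4, BC1, CESA3 and CESA8, and for 4.08% of all genes, while 0 members and 1.93% of all genes had −0.5 or less. These thresholds were chosen after the values had been seen.

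Most members in these counts lay in the brightest group, with no rise across the other groups. From the dimmest group up, the median swap means of the members in those other groups were 0.09, 0.02 and −0.02. Of the 9 members in the brightest group, 7 were above 1 on array 1 and below 1 on array 2, which 27.7% of the 4152 genes of that group were. The opposite form was found in 0 of the 9, against 27.7% of those genes too. A swap mean of 0.5 or more was found in 3 of the 9 and in 5.97% of those genes. CESA genes were 6 of the 9, and the median swap mean of the 9 was 0.36, against −0.003 over the genes of that group. Across the 29 members, which share the same arrays, Spearman's rho between swap mean and brightness was 0.46 and Pearson's r was 0.32; over all genes the 2 values were −0.05 and −0.01.

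Probes of a single gene disagreed in size. The brightest probe carried the widest swap mean in 4 of the 7 members with several probes, a share of 57.1% that is near the 49.0% of all 1859 such genes. For CESA1 the swap means were 0.55, 0.24 and 0.15 from the brightest probe to the dimmest, at brightness 9.21, 7.24 and 5.66. For CESA6 they were 0.46, 0.08 and 0.08, and for CSLF6 0.45, −0.10 and 0.20. In these 3 genes the brightest probe had the highest swap mean, and it was above 1 on array 1 and below 1 on array 2 each time. In CSLE2 the brightest probe had −0.04 and the dimmer probes −0.38 and 0.15. By number of probes, the brightest was the widest in 3 of the 4 members with 3 probes and in 35.0% of the 157 such genes of the series. Among members with 2 probes it was the widest in 1 of 3, namely CSLD1, and not in CESA2 or BC1L2, against 50.5% of 1690 genes. The other CSLD1 probe ranks as dimmer through a ratio of exactly 1 on array 1. On array 2 it was the brighter, with 6.27 against 5.82. The counts of 1 of 3 and 4 of 7 depend on this. The probes differed in sign in 3 of the 7 members with several probes, CESA2, CSLE2 and CSLF6, and in 41.8% of the 1859 such genes. Taking the brightest probe of each gene in place of the mean moved the median of the primary wall genes from 0.31 to 0.55. Whether probes also bind related family members was not tested.

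**Figure D4:**
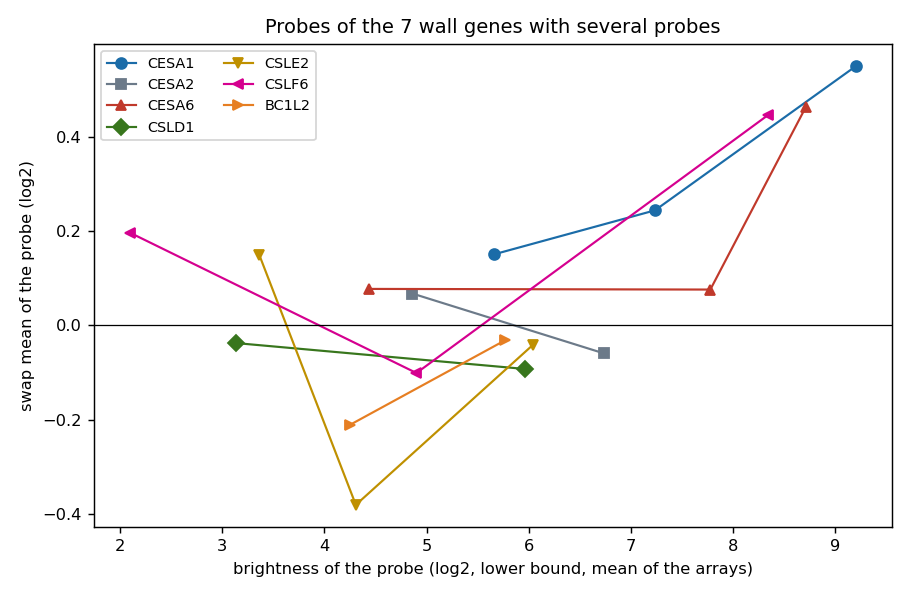
Swap mean (log2) of each probe against its brightness (log2, a lower bound on signal), for the 7 members with several probes, with lines joining the probes of a gene. The right-hand probes of CESA1, CESA6 and CSLF6 lie between 0.45 and 0.55, above the dimmer probes of those genes, while the probes of CSLD1, CESA2 and BC1L2 stay near or below 0.

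The 12 genes measured that supply sugar nucleotides to the wall had a median swap mean of 0.13, with 8 above the all-gene median. Sucrose synthases, which release UDP-glucose from sucrose, had a median of −0.17. Their swap means were negative in 4 of 6 genes, as were those of 7596 of all 15798 genes. SUS1 (LOC4333062) had −0.32 and 0.05 and SUS2 (LOC4340386) −0.43 and 0.03, both on bright spots, with swap means of −0.19 and −0.23. SUS4 (LOC4332788) had −0.27, SUS5 (LOC4335447) −0.16, SUS6 (LOC4331252) 0.04 and SUS3 (LOC4343910) 0.17, the last pair in the dimmest group. The UDP-glucose dehydrogenases UGD3, UGD4 and UGD5, which lead to pentose sugars and glucuronic acid, had 0.24, 0.27 and 0.16, and the UDP-arabinopyranose mutases UAM1 and UAM3 had 0.20 and 0.09. With LOC4346614, named RGP1, at 0.21, these 6 genes had a median of 0.21. SUS3 lay above UGD5 and UAM3, and the difference between the enzymes was not tested. None of these 12 genes was on either side.

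Genes of xylan and of wall acylation had the highest median of the wall lists, 0.63 over 6 genes, with 5 above the median of all genes and 1, AT4, on the array 1 side. Acyltransferases of the AT series attach hydroxycinnamic acids to grass wall components, and AT4 (LOC4325160), also named PMT, had 1.26 and −1.16, a swap mean of 1.21. AT15 (LOC4347960) had 0.95 and −1.21, a swap mean of 1.08 that passed 2-fold on array 2 only. GT47D (LOC4327240), of the family that includes xylan synthase subunits, had 1.11 and −0.55, a swap mean of 0.83. AT7, AT5 and AT1 had 0.42, 0.19 and −0.25. AT1 had a ratio of exactly 1 on array 2, which puts it in the dimmest group, so its signal is not known to be low. No gene on the lists of other cellulose accessory proteins and of secondary wall regulators was analysed here.

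The labelled tissue was set against marker genes, for which the arrays give brightness and ratios but no level of 1 RNA. The 5 green shoot markers measured, CAB1R, CAB2R, PORA, PORB and rca, had a brightness from 11.5 to 14.7. The root markers LSI1, LSI2 and IRT1 had 8.98, 2.74 and 2.92, and the 4 seed and aleurone markers 1.73 to 5.55. Swap means of the green shoot markers ran from −0.52 for rca to 1.05 for PORA. Those of the root markers ran from −0.14 to 0.12. Fewer cells of a type and less RNA per cell cannot be told apart in such samples, and the part of tissue makeup in the wall gene values was not tested.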

How the data were processed

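RNA of control and jasmonic acid-exposed seedlings was compared on 2 dye-swapped arrays, 1 replicate. The deposited values are log10 ratios, 1 per spot and array, from a GenePix scanner and software with GeneSpring version 4 for normalization, per the labels and design text; how background was subtracted or spots filtered is not stated there. Their medians are −0.0902 and −0.0954, so they are not centred, and the numerator is not stated: the scale is known and the direction is not. Values were multiplied to log2. The simplest fraction within 6e-10 of each log10 value gave the whole-number ratio and the brightness. The recovery was tested on simulated ratios with smaller terms than those of the brightest spots, the green shoot markers among them. It was not tested for those spots. Spots were paired with the platform annotation through a grid that runs the deposited rows backwards, as 215 lines with 105 spots each, and swaps its axes. With it 0 of 228 control-like spots (below −2.2 on both arrays, brightness above 4.5) fell on a gene, against 85.1% by spot number, and 1690 probe pairs correlated at a Spearman's rho of 0.30, against 0.01. All 15798 genes matched RefSeq assembly ASM3414082v1, used for names and gene order. Probes of a gene were averaged on each array. All members are named; full values are given for CESA genes, for members 2-fold on both arrays and for family extremes. No p-value was computed, and the number of arrays limits precision. The members and lists were chosen with earlier results of these data known. Python 3.11.15, numpy 2.4.6 and pandas 2.3.3 were used. Alternatives tried were centring, scaling, probes, dim spots, single arrays, spot-number names, thresholds and a wider name rule; the brightest probe, leaving out bHLH081 and the counts at 0.5 and of opposite ratios were added after seeing the data.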

Additional observations from a re-analysis of the deposited data

How the results depend on the processing

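Of 101 recomputed values 72 stayed within the spread between arrays or within 1.5 times a count. Centring, and centring with scaling, gave 1 member on the array 1 side in place of 0, CSLF8, 0 below 1 on both arrays in place of 1, and a median plain mean of −0.0324 and −0.0144 in place of −0.34, since centring removes the arrays' common offset. Array 1 alone gave −0.156 for the median of all members, in place of a swap mean of 0.12 and a plain mean of −0.34. It gave 0.266 for the secondary wall pair, and 1 member, CSLD5, was at least 2-fold below 1 on it. Array 2 alone, with its sign turned, gave 0.575 for the median of all members, 0.468 for CSL genes and 0.907 for the secondary wall pair. As a plain value the median of all members was −0.575. On array 2, 6 members were at least 2-fold below 1, 27 were below 1 and 16 had a sign-turned value of at least 0.5. A single array holds no side and no opposite ratios. With no all-gene shares given, these counts describe that array only and say nothing particular to the members. The median of all genes on array 2 was −0.30. Single-array values were not centred and carry the array's offset. Without the dimmest of the 4 brightness groups the secondary wall pair gave 0.873. There 0 members were at least 2-fold below 1 on both, with no share over all genes given. At 1.5-fold 3 members were on the array 1 side and 4 below 1 on both, and at 3-fold 0 were. All-gene shares at these thresholds are not given, so these counts cannot be set against them. The brightest probe of each gene gave 0.550 for primary wall genes. With names by spot number the primary and secondary wall medians were 0.0440 and 0.243, 3 members were at least 2-fold below 1 on both and 0 reached 0.5. Opposite ratios were then found for 4 members, against 12.6% of all genes. Of the 29, 22 exceeded the median of all genes, against 17 with the grid, so this count does not set the grid's names apart. No median above its spread changed sign under the alternatives run. No paired analysis was possible because both arrays are 1 replicate. CSLD5, CSLE1 and BC1L6 lie in the dimmest group, which limits them, though their brightness too is only a lower bound on signal. CESA7, BC1L9 and CSLC3 are in the dimmest group because a ratio of exactly 1 reduces to a brightness of 0. On the other array their brightness was 5.16, 5.91 and 4.92. The median was 5.99 on array 2, which read CESA7 and BC1L9, and 4.83 on array 1, which read CSLC3. Their signal is therefore not known to be low, and the spread of their group may not be theirs.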
